A study of Mus musculus with 10 samples.

Results

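Distal sites of the SWI/SNF chromatin remodelling complex that lie away from Ctcf and cohesin were examined in AB17 cells by chromatin immunoprecipitation and sequencing (ChIP-seq). A site was a summit of the wildtype (WT) Brg1 list on chromosomes 1 to 19 with a WT Arid1a summit at most 1 kb away, no WT Ctcf or Rad21 summit within 1 kb and no annotated transcript start within 2 kb. The rule selected 7865 of 81227 autosomal Brg1 summits, or 9.68%. The sites were thus chosen by the positions of the 4 factor lists, and their Brg1, Arid1a, Ctcf and Rad21 values below are descriptions.

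AB17 cells are primary hepatocytes of an Arid1a fl/fl C57BL/6 mouse, immortalized with SV40 large T antigen and then infected with a mutant H-Ras virus, so all groups share both agents. Infection with Ad-GFP left Arid1a in place (WT), and infection with Ad-Cre removed it (Arid1a-/-, KO). Summit lists were analysed for 8 of 10 samples, namely H3K9me3 and H3K27me3 in WT and KO cells and Arid1a, Brg1, Ctcf and Rad21 in WT cells; the other 2 samples were inputs. Each group was 1 library of 1 line, so differences lack any replicate error, p-values are not given, and intervals are 95% intervals that cover counting error only. Because no factor was profiled in KO cells, KO values describe the marks at positions that the factors held in WT cells. The lists hold no expression values, so the hepatocyte label was not checked against markers, and how deeply each library was sequenced cannot be read from them.

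SWI/SNF complexes use the energy of ATP to slide and evict nucleosomes. Brg1, encoded by Smarca4, is the ATPase, and Arid1a is a DNA-binding subunit of the BAF form of the complex. Away from promoters BAF is known mainly from enhancers, where it works with transcription factors such as AP-1. Ctcf and the cohesin subunit Rad21 mark loop anchors and domain borders, H3K9me3 marks constitutive heterochromatin and H3K27me3 is the Polycomb mark.

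Of 59783 distal Brg1 summits, 12734 had Arid1a within 1 kb. The 7865 sites made up 61.8% of these, and the other 4869 had Ctcf or Rad21 as well, namely 2205 with Rad21 only, 929 with Ctcf only and 1735 with both. These 4869 summits are called architectural sites below and serve as the main comparison. The name says only that a Ctcf or Rad21 summit lay within 1 kb. A further 36766 distal Brg1 summits had none of the 3 partners and are called Brg1-only summits. Just inside the Arid1a limit was a site 1000 bp from its partner, nearest to the gene Cnot6l, and just outside was a summit at 1001 bp near Sh2b3. At the Ctcf and Rad21 limit, a site near Srsf3 lay 1001 bp away and an excluded summit near Tomm20 lay 1000 bp away. At the start limit, an excluded summit near Maml1 lay 1997 bp from a transcript start. By a wider measure, 4007 of the sites, or 50.9%, had no Ctcf or Rad21 summit within 5 kb.

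The Arid1a partners were only in part concentrated at the Brg1 summits. Around the 44631 distal Brg1 summits without Ctcf or Rad21, the first 100 bp held 25.3 Arid1a summits per 1000 Brg1 summits. That number fell to 15.6 at 900 to 999 bp, which was also the mean per 100 bp at 3 to 5 kb. The first step was therefore 1.62 times the level of the neighbourhood. The level at 3 to 5 kb, taken over the whole first 1 kb, would give 79.9% of the Arid1a summits counted there. Arid1a lay within 100 bp at 14.5% of the sites, and the median distance was 387 bp. A site is thus a Brg1 summit with Arid1a in its neighbourhood, and only some of the pairs share 1 position.

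**Figure D1:**
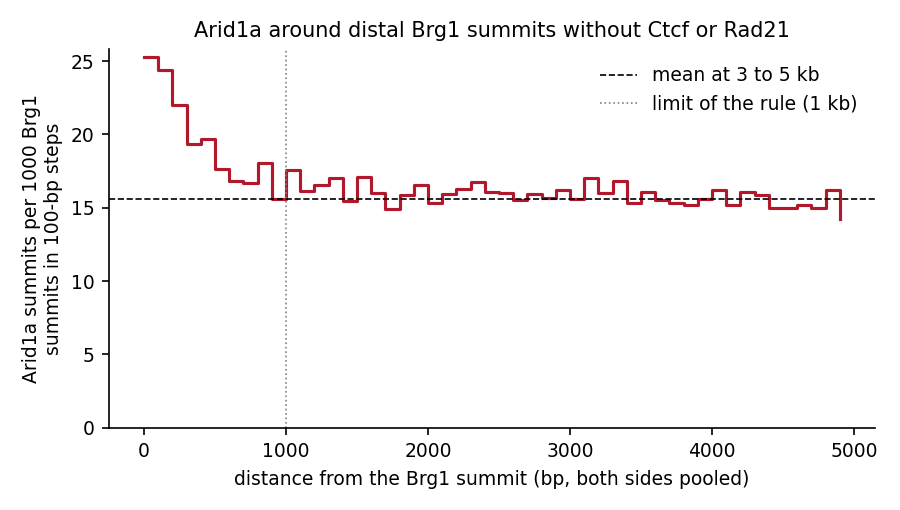
Arid1a summits per 1000 distal Brg1 summits without Ctcf or Rad21 (y axis, in steps of 100 bp, both sides pooled) against the distance from the Brg1 summit in bp (x axis). The solid line falls from 25.3 in the first step to the dashed level of 15.6, the mean at 3 to 5 kb, within the dotted 1-kb limit of the rule.

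Most sites were weak peaks, like most summits of the Brg1 list. The −log10 q-value that MACS2 had assigned to the Brg1 peak had a median of 2.56 at the sites and of 3.0 at the architectural sites. The median was also 2.56 at Brg1-only summits and over all autosomal Brg1 summits. A value of 5 or more was reached by 326 sites (4.14%), by 462 of 4869 architectural sites and by 359 of 36766 Brg1-only summits. A value of 10 or more was reached by 2 sites. Values were heavily tied, and 15.6% of the sites shared the value 2.56.

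Sequences are shown for 3 of the 10 strongest sites and for 3 strong sites with an AP-1 match close to the summit, because the strength of the peaks and the AP-1 motif are the features the results below turn on. Each run spans 100 bp on each side of the Brg1 summit on the plus strand of GRCm38 (mm10), read 5′ to 3′ from the RefSeq assembly, and capitals mark matches to the AP-1 motif TGANTCA or the forkhead motif TGTTTAC on either strand. Sites in exons were not printed. Of the strongest sites outside exons, those near Vps45 and Slc39a10 are left out and held no match to either motif, so the printed sequences do not show how common the motifs are. The 3 AP-1 examples were chosen after the motif counts were seen, and a soft-masked site near H2al2a with 1 AP-1 match, stronger than or tied with those near Nanos3 and in Lnpep, was passed over.
Near Rpusd4, chr9:35305337-35305537: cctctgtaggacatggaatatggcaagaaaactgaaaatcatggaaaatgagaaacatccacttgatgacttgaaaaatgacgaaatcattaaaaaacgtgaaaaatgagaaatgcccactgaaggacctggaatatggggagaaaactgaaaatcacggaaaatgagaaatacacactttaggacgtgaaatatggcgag
Near Dhrs3, chr4:144956068-144956268: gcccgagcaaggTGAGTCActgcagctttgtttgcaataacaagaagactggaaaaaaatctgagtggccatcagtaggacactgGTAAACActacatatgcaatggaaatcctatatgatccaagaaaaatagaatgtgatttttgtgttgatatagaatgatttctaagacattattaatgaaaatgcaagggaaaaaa
Near Dph6, chr2:114671032-114671232: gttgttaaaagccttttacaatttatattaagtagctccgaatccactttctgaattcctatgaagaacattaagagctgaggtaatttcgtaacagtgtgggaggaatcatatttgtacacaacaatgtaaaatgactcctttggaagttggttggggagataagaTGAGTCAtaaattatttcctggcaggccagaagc
In Lama2, chr10:27249869-27250069: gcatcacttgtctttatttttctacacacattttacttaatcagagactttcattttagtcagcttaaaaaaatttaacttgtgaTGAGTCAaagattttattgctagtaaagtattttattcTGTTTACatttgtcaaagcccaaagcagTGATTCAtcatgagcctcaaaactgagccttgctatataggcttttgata
Near Nanos3, chr8:84192627-84192827: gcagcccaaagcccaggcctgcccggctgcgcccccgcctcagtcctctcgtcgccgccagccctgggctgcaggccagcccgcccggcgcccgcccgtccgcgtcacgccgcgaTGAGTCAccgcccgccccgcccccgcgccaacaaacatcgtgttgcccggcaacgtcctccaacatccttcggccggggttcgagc
In Lnpep, chr17:17601060-17601260: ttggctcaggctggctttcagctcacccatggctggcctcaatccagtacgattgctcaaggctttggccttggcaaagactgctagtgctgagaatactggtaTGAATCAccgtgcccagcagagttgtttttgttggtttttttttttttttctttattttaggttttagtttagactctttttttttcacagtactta

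The highest Brg1 value, 10.2, was listed on chromosome 18 at 63661395, in an exon of Txnl1, with Arid1a 826 bp away. The next, 10.02, lay on chromosome 10 at 45458739, in an exon of Lin28b (an RNA-binding inhibitor of let-7 maturation), with an AP-1 match within 100 bp. The site of rank 3 is the first sequence above. It lay in an intron of an annotated gene that is not protein-coding, 37572 bp from the start of Rpusd4. It was soft-masked, and its letters resemble the mouse major satellite, the repeat of pericentromeric heterochromatin. Its Brg1 value was 9.87, the highest Arid1a value within 1 kb was 11.96, and the nearest Arid1a summit lay 10 bp away. The highest WT H3K9me3 value within 1 kb, 28.8, was the highest of any site, and the highest KO H3K9me3 value was 16.5. The nearest WT and KO H3K9me3 summits lay at 18 and 2 bp. The site near Dhrs3 had a Brg1 value of 9.27 and Arid1a 94 bp away, with 1 AP-1 and 1 forkhead match in its sequence. The next ones lay in an intron of Vps45 (8.70, Arid1a at 71 bp) and in an exon of Tmpo, the gene of a nuclear lamina protein (8.49, Arid1a at 3 bp). Ranks 7 to 10 shared the value 8.40 and lay nearest to Slc39a10, Dph6, Dnaja1 and Rab30, at Arid1a distances of 112, 38, 4 and 570 bp. Of the 10 strongest sites 5 lay in exons, and 2, those near Rpusd4 and in Tmpo, had a WT H3K9me3 summit within 1 kb.

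The sites were spread unevenly over the genome. By number, chromosome 10 held 1113 sites, chromosome 5 held 1071 and chromosome 2 held 843. Chromosomes 18 and 19, which are short and dense in sites, held 639 and 549, while chromosome 13 held 45 and chromosome 14 held 20. Per Mb the range ran from 0.160 on chromosome 14 to 8.94 on chromosome 19, with a median of 2.54. Chromosomes 5, 10, 18 and 19 together held 42.9% of the sites on 17.6% of the autosomal length. The density of sites followed that of Arid1a summits as a whole (Spearman's rho = 0.98 across the 19 autosomes), more than that of Ctcf summits (0.67) or of protein-coding genes (0.24); these values are descriptions, and the site density is built from the Arid1a and Brg1 lists themselves. Arid1a summits ranged from 3.67 to 64.5 per Mb and Brg1 summits from 4.95 to 67.3, and WT H3K9me3 summits from 18.4 on chromosome 14 to 95.5 on chromosome 10. The number of copies of each chromosome in AB17 cells is not known from the lists, and its part in these densities was not tested. Results below that could follow the dense chromosomes are therefore also given without chromosomes 5, 10, 18 and 19.

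**Figure D2:**
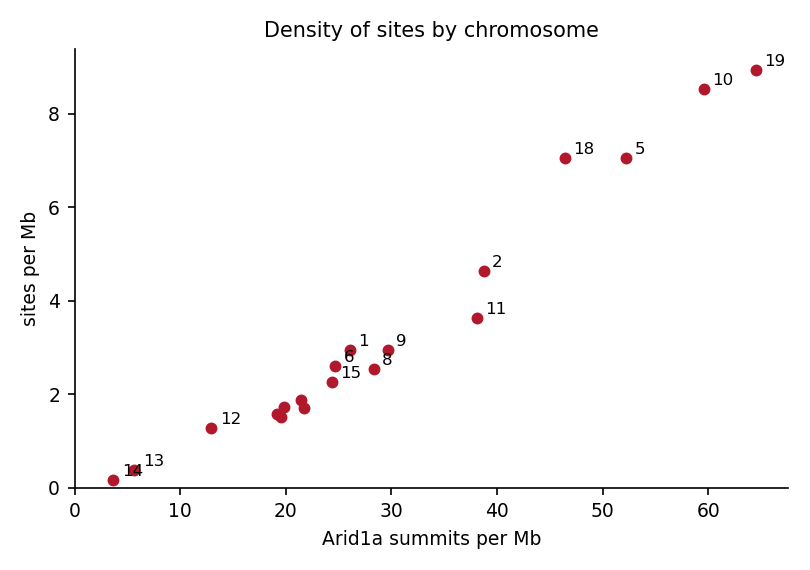
Sites per Mb (y axis) against Arid1a summits per Mb (x axis), 1 point per autosome, with numbers on points above 2.2 or below 1.4 sites per Mb. Chromosomes 19, 10, 5 and 18 stand at the upper right with 7.05 to 8.94 sites per Mb, and chromosomes 13 and 14 at the lower left with 0.374 and 0.160.

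Within chromosomes many sites lay close together. With sites at most 10 kb apart joined, 3213 sites (40.9%) fell into 1257 clusters, and 71 clusters held 5 or more. No such share is given here for other Brg1 summits, so the grouping is not shown to be particular to the sites. The largest was a run of 15 sites inside Wac, the gene of an adaptor of histone H2B ubiquitination, at chr18:7873774-7907974. A cluster of 11 sites lay inside Wdr17 (chr8:54810477-54838567) and another 11 inside Ankrd17 (chr5:90318864-90345331). One more cluster of 11 sites ran through Gata6 (chr18:11061725-11090504), which encodes a zinc finger transcription factor of endoderm, with 8 of the sites inside the gene and the rest beyond its end. Uhrf2, which encodes a reader of modified DNA, held 10 (chr19:30039129-30070021). In these 5 clusters the sites were moderate in strength, with highest Brg1 values of 3.801 to 5.87. None of their sites had an H3K27me3 summit within 1 kb in either genotype, but over all sites the shares were only 0.992% in WT and 0.509% in KO cells. WT H3K9me3 lay within 1 kb of 0 of 15 sites at Wac, 1 of 11 at Wdr17, 0 of 11 at Ankrd17, 1 of 11 at Gata6 and 3 of 10 at Uhrf2, and KO H3K9me3 within 1 kb of 1, 1, 2, 0 and 2 of them. AP-1 matches were found at 1, 1, 1, 0 and 2 of the sites.

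By gene body, 2356 of 20780 autosomal protein-coding genes contained at least 1 site, 230 contained 5 or more and 44 contained 10 or more. Such counts are not given here for architectural sites or Brg1-only summits, so they do not show genes particular to the sites. The genes with most sites were picked after the counts were seen. Sema3a, a secreted axon guidance and cell migration cue, held 35 sites in 477 kb, and Ptprk, a receptor phosphatase at cell contacts, held 26 in 523 kb. Ankrd17 held 22 in 139 kb. Cald1, encoding the actin- and tropomyosin-binding protein caldesmon, held 21 in 177 kb, and Col5a2, a fibrillar collagen chain, held 16 in 129 kb. Wac was the densest of these genes, with 16 sites in 60.2 kb.

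Relative to genes, 60.7% of the sites lay in introns, 7.27% in exons and 32.0% between genes. The intronic share was 4.69 points above that of the architectural sites (95% interval 2.93 to 6.46), and higher on 15 of the 17 chromosomes that had at least 20 of both. Against Brg1-only summits the difference was 7.397 points (6.20 to 8.59), higher on 17 of 19 chromosomes. Exons held 11.0% of the 326 strongest sites (Brg1 value of 5 or more; 8.08 to 14.9) and 7.11% of the rest (6.55 to 7.71). A transcript end of a protein-coding gene lay within 1 kb of 8.53% of the sites, against 9.94% of architectural sites and 5.32% of Brg1-only summits. The nearest transcript start lay over 50 kb away for 11.7% of the sites, a distance that does not tell whether a site lies inside a gene. The median distance to a start was 11308 bp at the sites, 8467 bp at architectural sites and 15341 bp at Brg1-only summits. Repeats, read from the soft-masked bases of the reference, held 24.7% of the sites, 22.98% of the architectural sites and 29.4% of the Brg1-only summits. The median GC content over 250 bp on each side was 40.5% at the sites and at Brg1-only summits and 44.9% at architectural sites.

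Of the 4 mark lists, WT H3K9me3 differed between the classes by the most percentage points. A WT H3K9me3 summit lay within 1 kb of 1843 sites, or 23.4% (22.5 to 24.4), where the background over all autosomal Brg1 summits was 25.6%. The share was 38.8% at architectural sites and 17.3% at Brg1-only summits. Within the architectural sites it was 41.9% with Rad21 only, 30.4% with Ctcf only and 39.5% with both. The sites were 15.4 points below the architectural sites (−17.1 to −13.7) and below them on 17 of 17 chromosomes compared, and 6.15 points above Brg1-only summits (5.15 to 7.17), higher on 19 of 19. The gap to the architectural sites held at every strength, with differences of −14.4, −14.3, −15.0 and −17.9 points for Brg1 values under 2.5, of 2.5 to 3, of 3 to 5 and of 5 or more. It was smaller within ranges of GC content, at −8.31 points below 40% GC, −8.94 from 40 to 45% and −12.3 at 45% or above. In those ranges the share at the sites themselves was 15.5%, 26.03% and 35.5%. Leaving out chromosomes 5, 10, 18 and 19 gave −15.7 points.

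In KO cells the classes were alike within a few points. KO H3K9me3 lay within 1 kb of 13.4% of the sites (12.7 to 14.2), 12.5% of the architectural sites and 12.9% of the Brg1-only summits, with a background of 11.6% over all Brg1 summits. Sites and architectural sites differed by 0.94 points (−0.27 to 2.12), an interval that lies apart from the one in WT cells. At 45% GC or above the difference was 2.28 points (0.24 to 4.36). The share at the sites was thus 1.75 times as high in WT as in KO cells, and that at architectural sites 3.11 times. The lists were of unlike length, with 143835 WT and 134976 KO summits, but with equal numbers of the strongest summits the ratios were 1.66 and 2.98. H3K9me3 in WT only was found at 17.7% of the sites, in KO only at 7.69% and in both at 5.73%. Over all autosomal Brg1 summits these shares were 20.7%, 6.72% and 4.90%, and at architectural sites 32.6%, 6.20% and 6.28%. With 1 library per genotype, a change with genotype and a difference between libraries cannot be told apart.

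**Figure D3:**
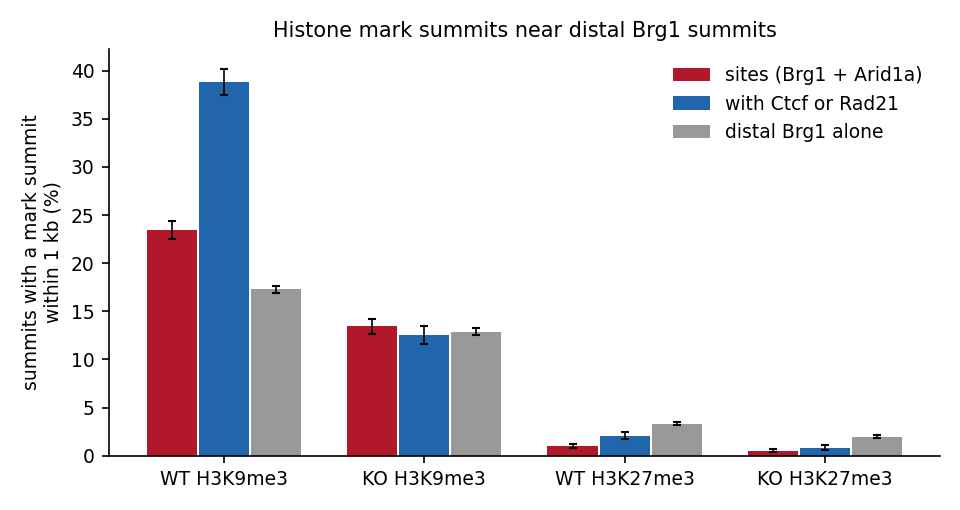
Share of summits (%, y axis) with a histone mark summit within 1 kb, for the 7865 sites (red), the 4869 distal Brg1 and Arid1a summits with Ctcf or Rad21 (blue) and the 36766 distal Brg1 summits without Arid1a, Ctcf or Rad21 (grey); error bars are 95% Wilson intervals. WT H3K9me3 stands at 23.4%, 38.8% and 17.3% in the 3 classes, and KO H3K9me3 at 13.4%, 12.5% and 12.9%.

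The profile by distance gave the same picture. Around the sites WT H3K9me3 summits were 1.27 times as frequent in the first 1 kb as at 10 to 20 kb, and still 1.15 times at 1 to 2 kb. Around architectural sites the first value was 1.66. KO H3K9me3 was flat, at 1.01 around the sites and 0.956 around architectural sites. The WT excess at the sites was thus small beside the level of their surroundings.

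H3K27me3 was rare at the sites. It lay within 1 kb of 78 sites in WT cells, or 0.992% (0.795 to 1.24), against a background of 3.54%, and within 1 kb of 40 sites in KO cells, or 0.509% (0.374 to 0.692), against 2.09%. In WT cells the share was 2.05% at architectural sites and 3.32% at Brg1-only summits, so the sites were lower by 1.06 points (−1.54 to −0.63) and 2.33 points (−2.60 to −2.03). In KO cells they were lower by 0.292 points (−0.614 to −0.010) and 1.46 points (−1.65 to −1.23). The gap to the architectural sites was not clear within ranges of GC content. In WT cells it was −0.231 points below 40% GC (−1.03 to 0.28), −0.525 from 40 to 45% (−1.42 to 0.24) and −1.35 at 45% or above (−2.21 to −0.48). In KO cells it was 0.165 (−0.360 to 0.453), 0.00555 (−0.577 to 0.485) and −0.479 (−1.08 to 0.14), so that each interval included 0. At Brg1 values of 5 or more the differences were −0.036 in WT and 0.181 in KO cells, and both intervals included 0. The KO interval also included 0 with partners within 500 bp, with Arid1a within 300 bp, with stronger factor peaks, with merged sites, with a mark window of 500 bp and without chromosomes 5, 10, 18 and 19. The low level reached beyond the sites. Its summits occurred at 0.460 times the 10 to 20 kb level in the first 1 kb around the sites in WT cells and at 0.341 times in KO cells, and at 0.630 and 0.667 times 5 to 6 kb away. Among the few exceptions, an intron of Sobp (chr10:43169371) had values of 7.77 in WT and 6.92 in KO cells, and a position among the Hox genes Hoxc5 and Hoxc9 (chr15:102979786) had 4.24 and 6.86. The highest WT value, 11.1, belonged to a soft-masked position on chromosome 5 near Gm21083, which also carried H3K9me3 in both genotypes. No summit of either mark in either genotype was found within 1 kb of 5355 sites, or 68.1%. At least 1 such summit lay within 1 kb of 31.9% of the sites, against 35.1% of all autosomal Brg1 summits. That share was 46.4% at architectural sites and 28.2% at Brg1-only summits.

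**Figure D4:**
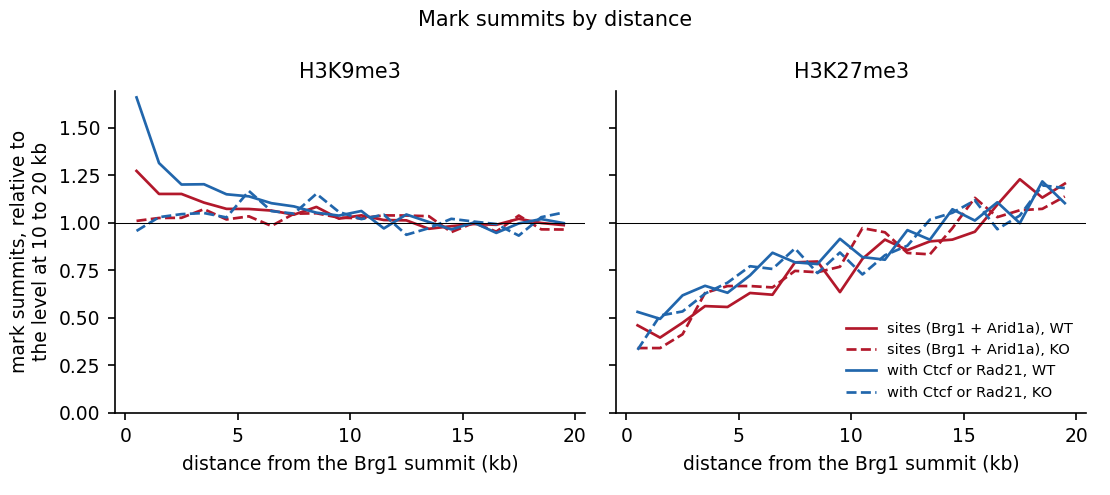
Frequency of H3K9me3 (left) and H3K27me3 (right) summits relative to the level at 10 to 20 kb (y axis) against the distance from the Brg1 summit in kb (x axis), for sites (red) and distal summits with Ctcf or Rad21 (blue), in WT (solid) and KO (dashed) cells. WT H3K9me3 rises to 1.27 at the sites and 1.66 at the summits with Ctcf or Rad21, both KO H3K9me3 lines stay near 1, and all 4 H3K27me3 lines fall below 0.6 in the first 1 kb.

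The strongest H3K9me3 at the sites lay on repeats. After the site near Rpusd4, the next highest WT value within 1 kb, 26.4, belonged to the site at chr9:3010943. The highest KO value, 30.1, belonged to the site at chr9:3009430. Both sites lay on soft-masked bases near the start of the assembled chromosome 9. These 2 were the only sites in the first 3.1 Mb of that chromosome. With soft-masked summits left out, 5921 sites remained, with 22.3% near WT and 11.5% near KO H3K9me3.

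The AP-1 motif, bound by Fos and Jun dimers, was, of the 15 motifs searched, the one whose share at the sites exceeded the moved windows by most percentage points. TGANTCA lay within 100 bp of the summit at 736 sites, or 9.36% (8.73 to 10.02), against 6.14% in the same windows moved by 2 kb to either side, 5.99% of all autosomal windows of the same length and 6.45% of windows in the GC range of the middle 50% of the sites. The share was 10.3% at architectural sites, a difference of −0.97 points (−2.06 to 0.09), and 7.24% at Brg1-only summits, which the sites exceeded by 2.11 points (1.44 to 2.83) and on 18 of 19 chromosomes. Within the architectural sites it was 12.3% with Rad21 only, 8.61% with Ctcf only and 8.76% with both. The 9.36% of the sites lay between these values. By distance from the summit, AP-1 matches per 1000 sites were 50.1 at 0 to 49 bp, 54.2 at 50 to 99 bp and 49.1 at 100 to 149 bp. They were 41.1 at 450 to 499 bp, so the rise was broad and not sharply centred on the summit. By peak strength the share at the sites was 8.85% (7.81 to 10.01) below a Brg1 value of 2.5 and 9.40% (8.19 to 10.75) from 2.5 to 3. It was 9.22% (8.23 to 10.31) between 3 and 5 and 14.4% (11.0 to 18.6) at 5 or more. Below 5 the intervals overlap. Arid1a within 100 bp went with a share of 10.1% and Arid1a beyond 300 bp with 8.73%, and these intervals overlap. The Lama2 site, in an intron of a laminin chain, held 2 AP-1 matches and 1 forkhead match, with Brg1 at 7.42.

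Motifs of liver factors differed less than AP-1 from their moved windows. From the architectural sites, however, the C/EBP (2.38 points, 1.34 to 3.39) and forkhead motifs differed by more points than AP-1. The forkhead motif TGTTTAC, of the family that includes Foxa proteins, was found at 4.16% of the sites (3.74 to 4.62), against 3.33% in moved windows and 2.61% at architectural sites, 1.55 points more than the latter (0.91 to 2.17) and higher on 14 of 17 chromosomes. The C/EBP motif TTGCNNAA was found at 10.5% of the sites, 9.01% of moved windows and 8.11% of architectural sites, whose GC content was higher. The moved windows of architectural sites were also lower than those of the sites, at 7.75% for the C/EBP and 2.90% for the forkhead motif. Part of both gaps was thus present 2 kb away from the summits. The HNF4 motif CAAAGTCC (0.788% against 0.769% in moved windows) and the HNF1 motif GTTAATNAT (0.788% against 0.763%) were at the level of their surroundings. The motif GGAATG of TEAD proteins, the DNA-binding partners of Yap1, was at 11.0% against 10.03%. The Ctcf consensus occurred at 4 sites, or 0.051% (0.020 to 0.131), and at 0.596% of architectural sites; the rule had used Ctcf peaks, so this is a description. The GC box GGGCGGG was at 0.903%, below the 2.22% of architectural sites on 17 of 17 chromosomes. A like gap was present in the windows moved by 2 kb, at 1.06% for the sites and 2.15% for the architectural sites. The motif AGATAAG of Gata factors was at 3.55% against 3.08% in moved windows and TGTGGTT of Runx factors at 5.19% against 5.04%, while the motifs of ETS factors (CCGGAAG), NF-Y (CCAATCA) and nuclear receptors (AGGTCA) were at 0.882 to 0.973 times their moved windows. The E-box motif CACGTG was at 2.03% against 1.77%, and the cyclic AMP response element TGACGTCA occurred at 9 sites, or 0.114% against 0.038%. Over all autosomal windows of this length the shares were 2.999% for the forkhead, 9.32% for the C/EBP, 0.765% for the HNF4, 0.708% for the HNF1 and 10.9% for the TEAD motif. In windows of the GC range of the middle 50% of the sites they were 3.14% for the forkhead, 10.2% for the C/EBP, 0.840% for the HNF4, 0.675% for the HNF1 and 11.5% for the TEAD motif. Those for C/EBP and TEAD lie within the intervals of the sites' own shares, 9.83 to 11.2% and 10.4 to 11.7%. Over all autosomal windows the shares were 2.94% for Gata, 4.76% for Runx, 0.582% for ETS, 2.52% for NF-Y and 11.2% for nuclear receptor motifs, and 1.02% for the GC box, 2.004% for the E-box, 0.111% for the cyclic AMP response element and 0.097% for the Ctcf consensus. A match says that the letters are present and not that a factor was bound.

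The genes around the sites were described with 14 lists, which were chosen with earlier results of these data known. A gene was counted when a site lay within 50 kb of its outermost start, which was the case for 5024 of 20780 autosomal protein-coding genes, or 24.2%. Extracellular matrix and epithelial-mesenchymal transition (EMT) genes stood highest, with 22 of 29, or 75.9% (57.9 to 87.8). Actin and focal adhesion genes followed with 12 of 22 (54.5%; 34.7 to 73.1) and Ras-MAPK feedback and target genes with 11 of 23 (47.8%; 29.2 to 67.04). Of Hippo pathway genes 8 of 20 were counted (interval 21.9 to 61.3%) and of ribosomal protein genes 12 of 30 (24.6 to 57.7%). Of hepatocyte plasma protein genes 9 of 24 were counted (21.2 to 57.3%). The Hippo and plasma protein intervals include the 24.2% of all genes. The mean number of sites per plasma protein gene was 0.896 times that of all genes. The other lists lay near or under the background, namely 4 of 21 hepatocyte transcription factors, 6 of 25 SWI/SNF subunits, 3 of 14 AP-1 genes, 3 of 19 epithelial junction and keratin genes, 3 of 15 immune and 2 of 15 endothelial markers, 2 of 18 neuronal genes and 2 of the 10 genes singled out by the study. That last list joined Pmp22, Gsc, Atg10, Rnf125, Cdh5 and Six2 with the genes of the profiled factors, Arid1a, Smarca4, Ctcf and Rad21. Its 2 genes with a site were Pmp22 and Smarca4.

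**Figure D5:**
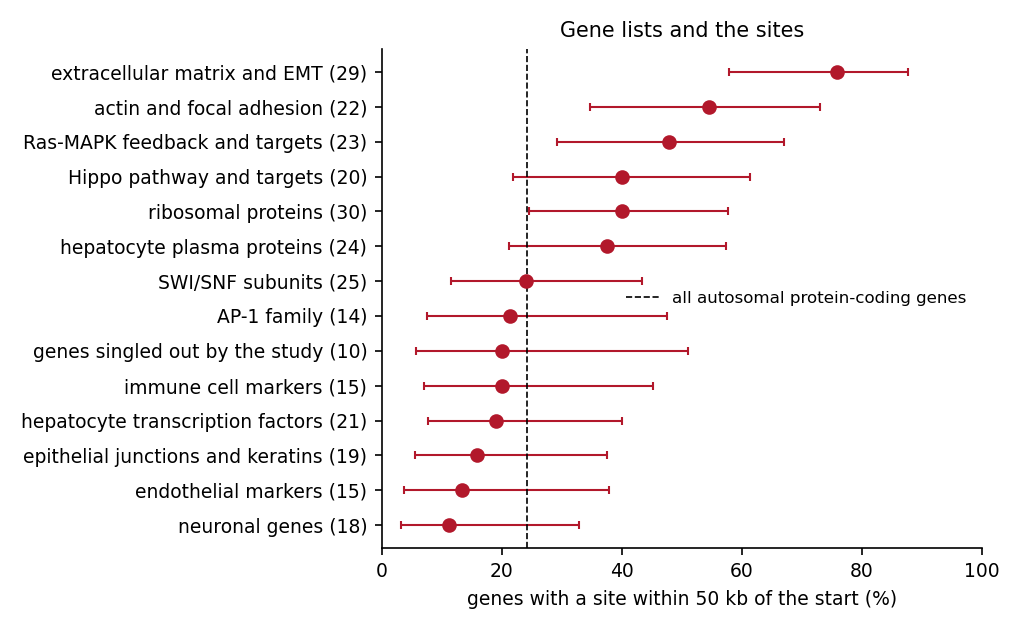
Share of genes (%, x axis) with a site within 50 kb of the start for 14 gene lists (y axis, number of genes in parentheses); points are shares with 95% Wilson intervals, and the dashed line is the 24.2% of all autosomal protein-coding genes. The extracellular matrix and EMT list stands at 75.9%, the actin and focal adhesion list at 54.5%, and neuronal genes at 11.1%.

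Among matrix and EMT genes, Col5a2 had 9 sites within 50 kb, its neighbour Col3a1 (the chain of type III collagen) had 8, and Timp3, an inhibitor of matrix metalloproteinases, had 8. Col3a1 and Col5a2 lie side by side on chromosome 1, so part of their sites are the same. Col4a1 and Col4a2, with 1 site each, also adjoin, so the genes of the list are not independent. Fn1 (fibronectin) had 7 sites, Spp1 (osteopontin) 6, and Cdh2 (N-cadherin) and Vim (vimentin) had 5 each. Both chains of type I collagen, Col1a1 and Col1a2, had 4. The 7 genes of the list without a site were Snai2, Twist1, Zeb2, Tgfb1, Col5a1, Thbs2 and Itga5, so 3 of the EMT transcription factors were among them, while Zeb1 had 3 sites and Snai1 had 1. In the actin list Cald1 had 9 sites, Tpm4 (a tropomyosin) 7 and Tpm1 4. In the Ras-MAPK list Hmga2, a chromatin protein of fetal and transformed cells, had 9, and Spred1, an inhibitor of the pathway, and Ereg, a ligand of the EGF receptor, had 5 each. Cdh1 and most other epithelial genes had none, and Jup (2 sites) led that list, followed by Epcam and Krt8 with 1 each. Among liver transcription factors Gata6 had 15 sites, Ppara 4 and Nr1i2 1. Alb, Afp and Apoa1 had 1 each, and the site counted for Alb and Afp was the same. Within the Hippo list Ankrd1, a Yap1 target, had 6 sites, and Yap1 and Tead1 had 3 each. Fosl2 had 4 sites and led the AP-1 list.

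These counts are not particular to the sites, because the same genes were rich in other Brg1 summits. The mean number within 50 kb of a matrix and EMT gene was 6.51 times that of all genes for the sites, 5.11 times for architectural sites and 3.26 times for Brg1-only summits. For actin and focal adhesion genes the values were 4.45, 7.24 and 2.15, and for Ras-MAPK genes 3.53, 5.37 and 1.63. Room for distal sites differed less, with a median of 84.2 kb out of the 100 kb window over 2 kb from every start for the matrix list and 75.5 kb for all genes. The matrix genes were longer, with a median length of 47.5 kb against 17.6 kb for all genes, and the part of gene length was not tested. All genes of the chromosomes that carry the matrix genes had a share of 26.8%, weighted by the list. Outside chromosomes 5, 10, 18 and 19 the list held 17 of 24 (70.8%, against 20.6% of all genes there). The actin list held 10 of 20 there and the Ras-MAPK list 5 of 14 (35.7%). With Arid1a within 300 bp of Brg1, 15 of 29 matrix genes (51.7%) still had a site, against 13.3% of all genes. No expression was measured in these files, so the levels of these genes in the cells were not examined.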

How the data were processed

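ChIP-seq was measured in AB17 cells, and each title's genotype and antibody formed a group of 1 library. The authors mapped reads with bowtie2 (mm10), filtered low-quality reads with SAMtools, dropped duplicates with Picard and ran MACS2 at default settings against the inputs; versions are not given in the sources used here. The deposited lists hold 1-bp summits with a −log10 q-value (read from the values, none below 1.30), which grows with depth. Calling narrow peaks splits broad marks into strings of summits.

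Distances, GENCODE vM21 annotation, motifs (both strands) and gene windows were computed with Python 3.11.15, numpy 2.4.6, pandas 2.3.3, numba 0.67.0 and pysam 0.24.0 on GRCm38. Shares carry Wilson and differences Newcombe intervals; neighbouring sites are not independent. The counting was tested on simulated summits. Members, motifs and gene lists were chosen with earlier results of these data known. Named were the 10 strongest Brg1 sites, the 2 strongest per mark, the 5 largest clusters, the sites at each limit and up to 3 genes per list; further genes were named after their values were seen. Of the listed symbols, 2 (Ctgf, Cyr61) were matched through RefSeq synonyms, and genes on X were not counted. Alternatives covered distances, thresholds, starts, merging, repeats, chromosomes, mark and motif windows and gene windows. A few values of named genes and sites are not reported here.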

Additional observations from a re-analysis of the deposited data

Results flagged for a closer look

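The rule kept to autosomes. Applied to chromosomes X and Y, which no comparison above uses, the same rule found 23 sites among 300 Brg1 summits (7.67%), of which 18 lay on X and 5 on Y. A count of 0 would allow up to 3.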

How the results depend on the processing

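Lower WT H3K9me3 and lower WT and KO H3K27me3 at the sites than at architectural sites kept their sign under every alternative of the rule, the mark lists and the mark window, but KO H3K27me3 turned to 0.165 points below 40% GC, 0.00555 from 40 to 45% GC and 0.181 at Brg1 values of 5 or more, where every interval included 0. The number of sites was 1302 with −log10 q of at least 3 in the Brg1 and Arid1a lists, and, under alternatives chosen after seeing the data, 4493 without chromosomes 5, 10, 18 and 19, 3205 with Arid1a within 300 bp and 4007 with no Ctcf or Rad21 within 5 kb. The stricter factor lists moved the differences to −18.1 points for WT H3K9me3, −1.58 for WT H3K27me3 and 0.593 for AP-1, whose main interval includes 0. Arid1a within 300 bp gave −18.6 for WT H3K9me3. No Ctcf or Rad21 within 5 kb gave −19.4 for WT and 2.21 for KO H3K9me3. Leaving out soft-masked summits gave −0.435 for KO H3K9me3. A −log10 q of at least 3 in the mark lists gave −7.12 for WT H3K9me3 and −0.470 for WT H3K27me3, and a mark window of 500 bp gave −9.83 and −0.470. A mark window of 5 kb gave −17.1 for WT H3K9me3, −2.89 for WT and −1.59 for KO H3K27me3. A motif window of 250 bp on each side gave −2.95 for AP-1. The causes were not tested. Of the 14 gene lists, 7 left their interval with a window of 20 kb and 3 with 100 kb. Single libraries of unknown depth limit every genotype difference. Replicates could not be left out, as each group was 1 library.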
